A study of Mus musculus with 18 samples.

Results

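The 10 genes described here encode the chains of the alpha-beta T cell receptor complex and its coreceptors: the CD3 chains (Cd3e, Cd3d, Cd3g and Cd247), the CD8 chains (Cd8a and Cd8b1), Cd4, and the constant regions of the receptor itself (Trac, Trbc1 and Trbc2). They were taken by symbol from a count table of 48440 gene identifiers, and each of the 10 was found in exactly 1 row. All 10 passed the filter on low counts in every comparison. Their RNA was measured in wild-type C57BL/6J mice, which were 7 weeks old when bought and had 1 week to adapt, and whose livers were given tumours by hydrodynamic tail vein injection of Ras and Myc oncogenes, a method that drives DNA into hepatocytes.

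Treatment combined poly(I:C), which mimics viral double-stranded RNA, with anti-PD-L1, an antibody that keeps PD-L1 from binding the T cell inhibitory receptor PD-1. The dosing note gives 4 mg/kg of poly(I:C) and 200 µg of anti-PD-L1 into the abdominal cavity every other day for 6 doses. The same note lists anti-VEGF-A at 5 mg/kg, which the treatment label of these libraries does not name. The untreated mice carried the same tumours. CD45+ liver leukocytes were sorted into CD3+CD8+, CD3+CD8- and CD3-CD8- cells, with 3 treated and 3 untreated libraries of each, 18 in all. Replicate numbers are those of the library names. The labels leave unsaid whether a number is an animal, so p-values measure the spread between these libraries.

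On the surface of a T cell, the TCR alpha and beta chains recognise peptide bound to an MHC molecule, but their tails carry no signal. The CD3 epsilon, delta and gamma chains and CD247 (CD3 zeta) are bound to them and hold the tyrosine motifs that the kinases LCK and ZAP70 use. CD4 and CD8 bind MHC class II and class I, and bring LCK to the receptor. CD8 is an alpha-beta heterodimer on conventional cytotoxic T cells and can be an alpha-alpha homodimer on some other lymphocytes and on a subset of mouse dendritic cells. Because the sort used the CD3 and CD8 proteins, Cd3e, Cd3d, Cd3g, Cd8a and Cd8b1 check the labels of the fractions. In a sorted population, fewer cells of a type and less RNA per cell cannot be told apart.

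Of the 10 genes, 5 lie on chromosome 6 and 3 on chromosome 9. Cd3g (ENSMUSG00000002033.13, chr9:44969572-44980431, minus strand) and Cd3d (ENSMUSG00000032094.7, chr9:44981793-44987052, plus strand) point away from each other with 1361 bases between them. Cd3e (ENSMUSG00000032093.6, chr9:44998743-45009590, minus strand) follows 11690 bases further on. Cd8b1 (ENSMUSG00000053044.8, chr6:71322788-71337494) and Cd8a (ENSMUSG00000053977.13, chr6:71373427-71379173) are neighbours on the plus strand, 35932 bases apart. Cd4 is ENSMUSG00000023274.14 (chr6:124864692-124888221, minus strand), Trac is ENSMUSG00000076928.5 (chr14:54220521-54224206, plus strand) and Cd247 is ENSMUSG00000005763.15 (chr1:165788681-165877277, plus strand). These positions are those of the deposited FPKM table with 1 added to the start. The start matches GENCODE vM21 on GRCm38 for 90.48% of the identifiers found there. Cd3e and Cd3d differ at both ends, with GENCODE giving chr9:44998740-45009627 and chr9:44981786-44987339. The gaps of 1361 and 11690 bases rest on the deposited positions. Cd3e and Cd247 each overlap other annotated genes on both strands, among them the protein-coding Pou2f1 on the strand opposite Cd247. Whether counting used strand is not given in the sources used here, and strand does not separate genes on the same strand. Reads of the overlapping genes thus cannot be told apart from those of Cd3e and Cd247.

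Trbc1 (ENSMUSG00000076490.6, chr6:41538218-41539881) and Trbc2 (ENSMUSG00000076498.2, chr6:41546730-41548352) are near-identical copies 6848 bases apart, and reads that fall in their shared part can be split between them or lost. Their coding parts, 518 bases each without the stop codon, differ at 23 positions, an identity of 95.56%. The first exon, 375 bases that encode the immunoglobulin-like domain, holds 1 difference, C260A, counted from 1 at the first base of the Trbc1 exon with the Trbc1 base first. The surrounding 60 bases (chr6:41538447-41538506 in Trbc1 and chr6:41546959-41547018 in Trbc2) are shown 5′ to 3′ with that base in capitals.
Trbc1: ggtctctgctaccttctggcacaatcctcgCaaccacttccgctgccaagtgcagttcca
Trbc2: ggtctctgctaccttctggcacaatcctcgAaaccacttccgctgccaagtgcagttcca
The other 22 differences lie in the later exons, whose 143 coding bases are 84.62% identical. These later exons encode the connecting piece, the membrane span and the short tail, and they are shown joined, with each difference in capitals.
Trbc1: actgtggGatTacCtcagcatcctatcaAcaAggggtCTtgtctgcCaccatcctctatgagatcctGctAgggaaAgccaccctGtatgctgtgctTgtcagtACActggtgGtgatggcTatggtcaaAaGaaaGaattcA
Trbc2: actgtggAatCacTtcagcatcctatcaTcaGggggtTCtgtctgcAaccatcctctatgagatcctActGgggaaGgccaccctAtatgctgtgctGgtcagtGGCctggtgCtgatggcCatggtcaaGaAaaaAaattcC
Of all 50-base windows of the transcripts, 41.13% of those of Trbc1 occur unchanged in Trbc2 and 44.01% of those of Trbc2 in Trbc1. Values for Trbc1 and Trbc2 singly are therefore uncertain, and their sum over Trac is given beside their ratio.

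RefSeq start-site windows (GRCm38.p6, 250 bases before to 50 after the start) were on hand for 5 of the 10 genes. The windows of Cd3g, Cd3d and Cd3e, the neighbours on chromosome 9, and of Cd8a are shown 5′ to 3′ on the gene's strand, because these genes have the values on which the results turn. Capitals mark ACTTCC on either strand, the core letters read by ETS factors, a motif picked after the sequences were read.
Cd3g (chr9:44980382-44980681, minus strand): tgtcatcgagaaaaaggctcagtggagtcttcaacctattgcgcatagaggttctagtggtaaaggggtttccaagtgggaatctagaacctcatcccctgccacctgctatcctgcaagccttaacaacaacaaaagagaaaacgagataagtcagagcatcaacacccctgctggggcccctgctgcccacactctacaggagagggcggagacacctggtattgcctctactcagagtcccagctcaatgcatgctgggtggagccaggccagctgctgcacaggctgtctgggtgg
Cd3d (chr9:44981536-44981835, plus strand): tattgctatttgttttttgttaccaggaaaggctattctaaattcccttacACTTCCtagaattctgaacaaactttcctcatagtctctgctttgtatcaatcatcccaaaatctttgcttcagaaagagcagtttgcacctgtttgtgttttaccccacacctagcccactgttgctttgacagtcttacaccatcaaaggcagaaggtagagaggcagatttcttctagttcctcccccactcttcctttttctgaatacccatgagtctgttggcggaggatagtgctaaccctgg
Cd3e (chr9:45009562-45009861, minus strand): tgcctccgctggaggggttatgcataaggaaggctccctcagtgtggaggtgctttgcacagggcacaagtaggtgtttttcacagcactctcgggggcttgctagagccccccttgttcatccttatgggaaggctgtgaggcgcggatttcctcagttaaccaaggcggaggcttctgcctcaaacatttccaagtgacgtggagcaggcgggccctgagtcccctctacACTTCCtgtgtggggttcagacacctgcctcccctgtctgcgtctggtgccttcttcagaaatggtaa
Cd8a (chr6:71373177-71373476, plus strand): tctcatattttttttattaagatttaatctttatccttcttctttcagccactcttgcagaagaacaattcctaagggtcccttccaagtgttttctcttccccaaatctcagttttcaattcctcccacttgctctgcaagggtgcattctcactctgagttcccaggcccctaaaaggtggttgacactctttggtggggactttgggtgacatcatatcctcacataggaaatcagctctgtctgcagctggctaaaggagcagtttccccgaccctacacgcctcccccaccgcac
ACTTCC occurs in 3 of the 5 windows (Cd247, Cd3d and Cd3e) and in 23.8% of 32851 windows of all genes. CANNTG, the E-box core, occurs in 5 of 5 and in 72.3% of all windows. AGATAA, letters read by GATA factors, occurs in 1 of 5, that of Cd3g, and in 11.2% of all windows. Both strands were searched, and these matches describe letters only.

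Total counts per library ran from 1829155 to 28233682, and the lowest count of any of these genes in a library was 26, for Cd8a in an untreated CD3+CD8- library. Ribosomal loci, 5 in number, took most counts of 3 libraries: treated CD3+CD8- replicate 2 and untreated CD3+CD8+ replicates 1 and 18. The ribosomal share was 79.7% to 87.04% in these 3 and 0.348% to 2.26% in the other 15. Levels are CPM (counts scaled to library size) with TMM factors over the 18 libraries, which lowers the weight of such loci. No 2 replicates of a group agreed within sampling noise. The fractions held other cells too. B cell markers summed to 1370 to 3160 CPM in CD3-CD8- libraries, 28.7 to 56.6 CPM in CD3+CD8- libraries and 29.2 to 39.3 CPM in treated CD3+CD8+ libraries, but reached 1388 CPM in untreated CD3+CD8+ replicate 18. Neutrophil markers summed to 3286 to 32698 CPM in CD3+CD8- libraries and to 20470 CPM in treated CD3-CD8- replicate 11. Hepatocyte markers summed to 2102 to 2991 CPM in the libraries of untreated replicate 18 and to 118 to 1157 CPM in the other libraries.

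The coreceptors fitted the labels of the CD3+CD8+ and CD3+CD8- libraries with 1 exception, whereas the CD3 and CD8 chains both went against the label of all 6 CD3-CD8- libraries. Cd8a, the CD8 alpha chain, stood at 7.68 to 23.5 CPM in treated CD3+CD8- libraries and at 4.63 and 6.80 CPM in untreated replicates 5 and 18 of that fraction. Cd8a reached 639 CPM and Cd8b1 548 CPM in the library labelled untreated CD3+CD8- replicate 6, within the range of the CD3+CD8+ libraries. Its library name starts with CV, where those of the other untreated libraries start with C. Names of treated replicate 19 start with PL in every fraction, where those of the other treated libraries start with P. The labels do not explain these letters. Cd4 of untreated CD3+CD8- replicate 6 was 103 CPM, below the 449 and 284 CPM of untreated replicates 5 and 18. Values without this library are given beside the results of Cd8a, Cd8b1 and Cd4 in untreated CD3+CD8- cells. Libraries labelled CD3-CD8- had 173 to 311 CPM of Cd3e when treated and 51.8 to 125 CPM when untreated. Their Cd8a was 547 to 982 CPM when treated and 60.6 to 287 CPM when untreated, and their Cd8b1 218 to 434 CPM when treated and 39.8 to 175 CPM when untreated, so RNA of CD8 T cell chains was plentiful in a fraction sorted as lacking both proteins.

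**Figure D1:**
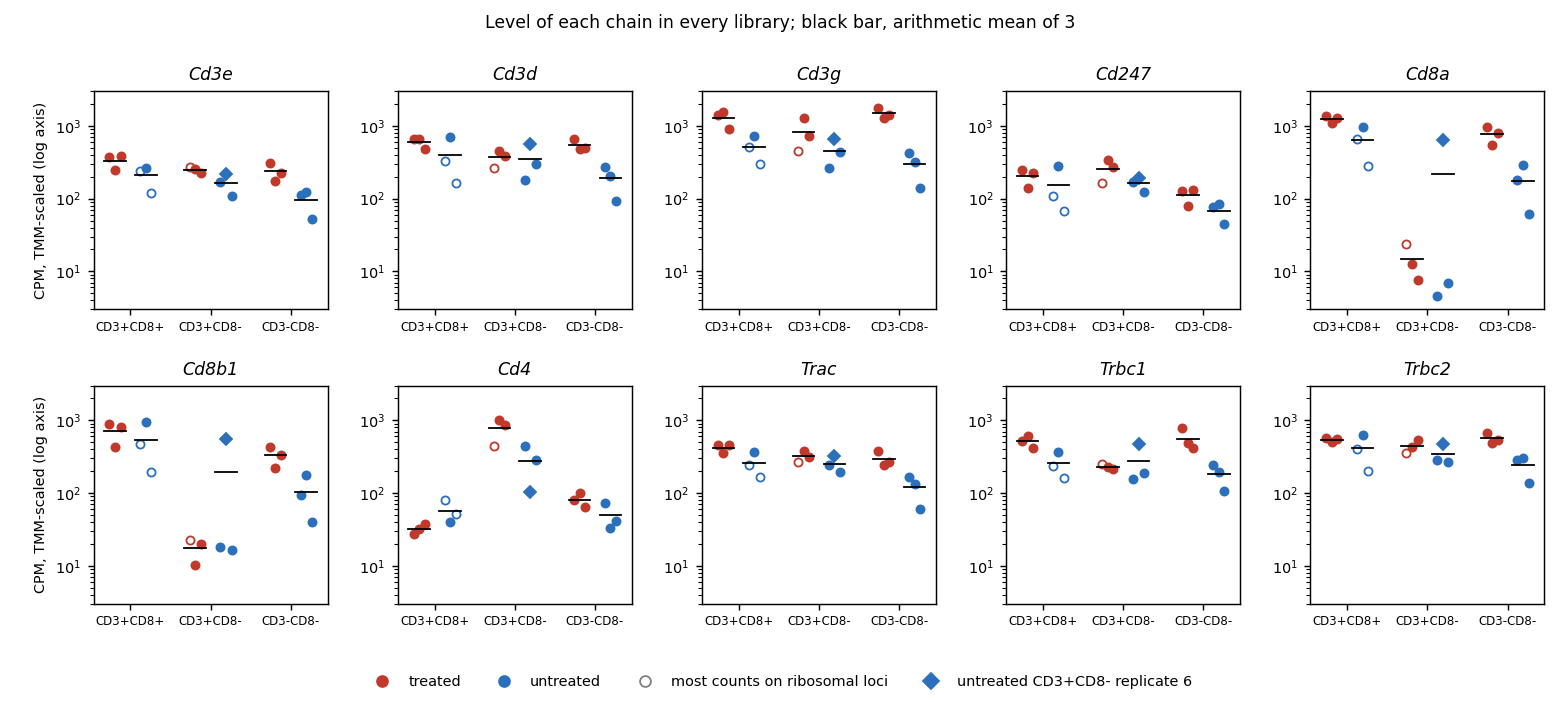
CPM of each of the 10 chains (log axis) in all 18 libraries, by fraction, with treated libraries in red left of untreated ones in blue and the arithmetic mean as a bar. Hollow points are the 3 libraries with most counts on ribosomal loci, and the diamond is untreated CD3+CD8- replicate 6, whose Cd8a of 639 CPM lies far above the 4.63 and 6.80 CPM of the other untreated libraries of that fraction.

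In the libraries labelled CD3-CD8-, 8 of the 10 chains rose with treatment and none fell. Cd3g rose 5.01-fold and Cd8a 4.42-fold, and the CD3, CD8 and TCR constant chains that passed the test rose at least 2.32-fold. The median log2 fold change of the 10 chains was 1.41, and that of all 13781 genes tested was -0.06. Over all genes, 25.6% passed an adjusted p of 0.05 (edgeR quasi-likelihood test, two-sided, Benjamini-Hochberg adjustment over all genes, 3 libraries against 3). By direction, 10.2% rose and 15.3% fell. Fold changes come from a fit of the 6 libraries of a fraction, with TMM over those 6.

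Among the signalling chains, Cd3g, the gamma chain, had 1755, 1296 and 1420 CPM in treated CD3-CD8- replicates 2, 11 and 19, against 424, 322 and 140 CPM in untreated replicates 1, 5 and 18. All 3 treated libraries lay far above all 3 untreated ones. Its log2 fold change was 2.32 ± 0.38 (SE, adjusted p = 0.0104). Cd3d, the delta chain, had 667, 483 and 499.6 CPM in the same treated libraries, against 272, 208 and 92.8 CPM in the untreated ones. Cd3d rose by 1.52 ± 0.36 (SE, log2, adjusted p = 0.0229), and its groups did not overlap. Cd3e, the epsilon chain that pairs with both, had 311, 173 and 228 CPM treated, against 110, 125 and 51.8 CPM untreated. Cd3e rose by 1.30 ± 0.35 (SE, log2, adjusted p = 0.0323). Cd247, the zeta chain, had 128, 80.0 and 129 CPM in treated libraries, against 76.3, 84.1 and 45.4 CPM in untreated ones. Its log2 fold change of 0.70 ± 0.27 did not pass the test (adjusted p = 0.0939), and its groups overlapped.

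Of the coreceptors, Cd8a had 982, 547 and 811 CPM in treated CD3-CD8- replicates 2, 11 and 19, against 181, 287 and 60.6 CPM in untreated replicates 1, 5 and 18. Cd8a rose by 2.14 ± 0.51 (SE, log2, adjusted p = 0.0233). Cd8b1, the beta chain of the heterodimer, had 434, 218 and 337 CPM treated, against 92.7, 175 and 39.8 CPM untreated. Cd8b1 rose by 1.68 ± 0.50 (SE, log2, adjusted p = 0.0440). All 3 treated libraries exceeded all 3 untreated libraries for both CD8 chains. Cd4 had 79.5, 99.3 and 64.7 CPM treated, against 73.8, 33.1 and 41.5 CPM untreated, and the groups overlapped. Its log2 fold change was 0.68 ± 0.30 (SE, adjusted p = 0.129).

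The receptor's own constant chains also rose. Trac, the alpha constant region, had 380.5, 244 and 270.2 CPM in treated libraries, against 168, 133 and 60.6 CPM in untreated ones, and rose by 1.30 ± 0.35 (SE, log2, adjusted p = 0.0350). Trbc1 had 782.5, 483 and 417 CPM treated, against 243, 194 and 107 CPM untreated, and rose by 1.62 ± 0.35 (SE, log2, adjusted p = 0.0179). Trbc2 had 663, 489.5 and 542 CPM treated, against 281, 303 and 138 CPM untreated, and rose by 1.21 ± 0.29 (SE, log2, adjusted p = 0.0241). For each of these 3 the groups stood apart. In all, 8 of the 10 chains had every treated library above every untreated one, a pattern held by 20.1% of all genes tested. The reverse pattern was held by 0 of the 10 and by 24.7% of all genes.

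The direction was the same for all 10 chains in each of 18 alternatives, with Cd3g between 1.74 and 2.62 and Cd4 between 0.44 and 1.06 on the log2 scale. The number called was less stable. The number of all genes called, 3522 in the main fit, moved as well and is given in brackets. It was 0 of 10 chains without untreated replicate 5 (239 genes) and 1 of 10 without treated replicate 2 (910 genes). It was 2 of 10 without treated replicate 19 (1185 genes) and 5 of 10 without untreated replicate 1 (2403 genes). It rose to 9 of 10 without treated replicate 11 (3183 genes). With a correction for the GC content of transcripts (500 genes) it was 1 of 10, Cd3g, whose log2 fold change fell to 1.74 (adjusted p = 0.0486). Scaled by library totals alone, 3 of 10 passed (2043 genes), and with all 18 libraries in 1 fit 1 of 10 (76 genes). With the sequencing lane as a covariate 6 of 10 passed (2524 genes), and both lanes held libraries of each group. Cd247 and Cd4, not called in the main fit, passed in 3 and 4 of the 18 alternatives. Of all genes called, 39.9% were higher in treated libraries. That share was 17.2% with totals alone, 80.3% with all 18 libraries in 1 fit and 52.8% with the GC correction.

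**Figure D2:**
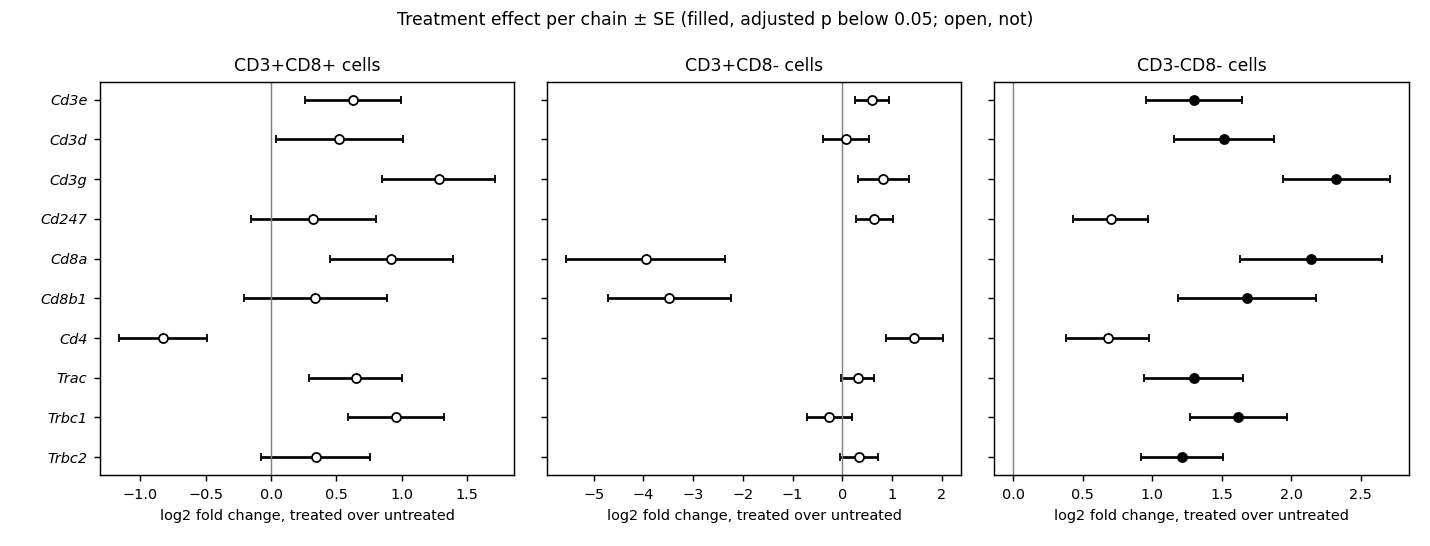
Log2 fold change of each chain, treated over untreated, with its SE (horizontal axis), in the 3 fractions. Filled points passed an adjusted p of 0.05; 8 of 10 are filled in CD3-CD8- cells and none in the other fractions, where Cd8a and Cd8b1 of CD3+CD8- cells lie far to the left because untreated replicate 6 carries them.

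Other lists moved in the same CD3-CD8- libraries. Of 26 genes of TCR signalling, 7 rose and 2 fell, and the median log2 fold change was 0.65. Themis, a T cell adaptor, averaged 266 ± 79.2 CPM treated and 49.7 ± 23.6 CPM untreated (SD, n = 3 each) and rose by 2.41 ± 0.41 (SE, log2, adjusted p = 0.0108). Sh2d1a, which encodes the adaptor SAP, averaged 142 ± 11.6 CPM treated and 43.3 ± 13.8 CPM untreated and rose by 1.69 ± 0.23 (adjusted p = 0.00878). With the GC correction neither Themis nor Sh2d1a passed, and the log2 fold change was 1.82 for Themis and 1.02 for Sh2d1a.

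Of 17 regulators of the CD4, CD8 and TCR loci, 3 rose and 5 fell in these libraries, and the median log2 fold change was -0.08. Zbtb7b, which encodes ThPOK, a factor of the CD4 lineage, averaged 8.47 ± 2.24 CPM treated and 26.7 ± 5.75 CPM untreated (SD, n = 3 each). It fell by 1.72 on the log2 scale (SE 0.22, adjusted p = 0.00860). Tcf7, which encodes TCF-1, averaged 28.8 ± 2.81 CPM treated and 69.0 ± 15.5 CPM untreated and fell by 1.28 (SE 0.18, adjusted p = 0.00905). Tcf3, an E protein that B cells also use, averaged 5.34 ± 1.36 CPM treated and 30.1 ± 10.6 CPM untreated and fell by 2.47 (SE 0.31, adjusted p = 0.00826). With the GC correction Zbtb7b no longer passed (log2 fold change -0.61), and Tcf7 and Tcf3 did, at -0.99 and -1.23.

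Of 4 tested chains of the gamma-delta receptor, 1 rose. Tcrg-C2, a gamma constant region, averaged 234 ± 75.8 CPM in treated and 59.5 ± 31.7 CPM in untreated CD3-CD8- libraries (SD, n = 3 each), a log2 fold change of 1.97 ± 0.43 (SE, adjusted p = 0.0179). With the GC correction it was 1.58 and did not pass (adjusted p = 0.0725). Trdc, the only delta constant region, averaged 7.21 ± 1.91 CPM treated and 12.7 ± 8.35 CPM untreated, with a log2 fold change of -0.86 ± 0.46 (SE, adjusted p = 0.207).

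Markers of other cells moved in these libraries as well, and their part in the rise of the T cell chains was not tested. Of 10 B cell markers 9 fell, and their sum was 1370 to 1850 CPM in treated and 2301 to 3160 CPM in untreated libraries. The log2 fold change was -1.52 ± 0.25 for Cd79a, of the B cell receptor complex (SE, adjusted p = 0.0104). It was -1.55 ± 0.26 for Fcer2a (adjusted p = 0.0107) and -1.01 ± 0.21 for Fcrla (adjusted p = 0.0163). With the GC correction Fcer2a (-1.30) and Fcrla (-1.05) still passed, and Cd79a (-0.96, adjusted p = 0.0615) did not. Of 10 markers of Kupffer cells and macrophages 5 fell, with sums of 203 to 691 CPM treated and 534 to 1539 CPM untreated. The log2 fold change was -4.85 ± 0.70 for Timd4, of resident Kupffer cells (SE, adjusted p = 0.00905), -2.42 ± 0.46 for C1qa (adjusted p = 0.0130) and -2.47 ± 0.54 for C1qc (adjusted p = 0.0186). With the GC correction Timd4 (-5.08) still passed, and C1qa (-1.40, adjusted p = 0.148) and C1qc (-1.64, adjusted p = 0.138) did not.

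Of 11 NK cell markers 2 fell, where 15.3% of all genes fell. They were Klrb1c, with a log2 fold change of -1.31 ± 0.36 (SE, adjusted p = 0.0347), and S1pr5, with -0.89 ± 0.27 (adjusted p = 0.0460). The median log2 fold change of the 11 was -0.80, and 1 of them was positive. Of 7 markers of type 1 conventional dendritic cells, some of which carry CD8 alpha in mouse, 2 fell: Wdfy4, with a log2 fold change of -1.27 ± 0.23 (SE, adjusted p = 0.0120), and Irf8, with -0.87 ± 0.26 (adjusted p = 0.0428). The median log2 fold change of the 7 was -0.30, and 2 of them were positive, the highest at 0.79. With the GC correction none of the 4 genes named as fallen passed, with S1pr5 at -0.07, Klrb1c at -1.48, Irf8 at -0.63 and Wdfy4 at -0.75 (adjusted p of 0.0632 to 0.899). Of 9 neutrophil markers 4 rose, with sums of 582 to 20470 CPM treated and 130 to 843 CPM untreated. Camp rose by 7.21 ± 1.75 (adjusted p = 0.0246), Ngp by 6.63 ± 1.45 (adjusted p = 0.0182) and Ltf by 6.22 ± 1.35 (SE, log2, adjusted p = 0.0179). Treated replicate 11 carried the size of these changes: Camp had 290.8 CPM there and 5.41 and 9.53 CPM in the other treated libraries, against 0.529 to 0.882 CPM in untreated ones. Without it the log2 fold changes were 3.49 for Camp, 3.86 for Ngp and 3.68 for Ltf (adjusted p = 0.0211 each), and with the GC correction none of the 3 passed (adjusted p of 0.0535 to 0.0609). Of 8 plasmacytoid dendritic cell markers 1 rose, Pacsin1 by 0.91 ± 0.18 (SE, log2, adjusted p = 0.0143), where 10.2% of all genes rose. Only 2 of the 8 had a positive log2 fold change, and their median was -0.61. None of 8 hepatocyte markers passed the test. The 10 chains together summed to 4112 to 6182 CPM in treated and 778 to 1922 CPM in untreated libraries.

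**Figure D3:**
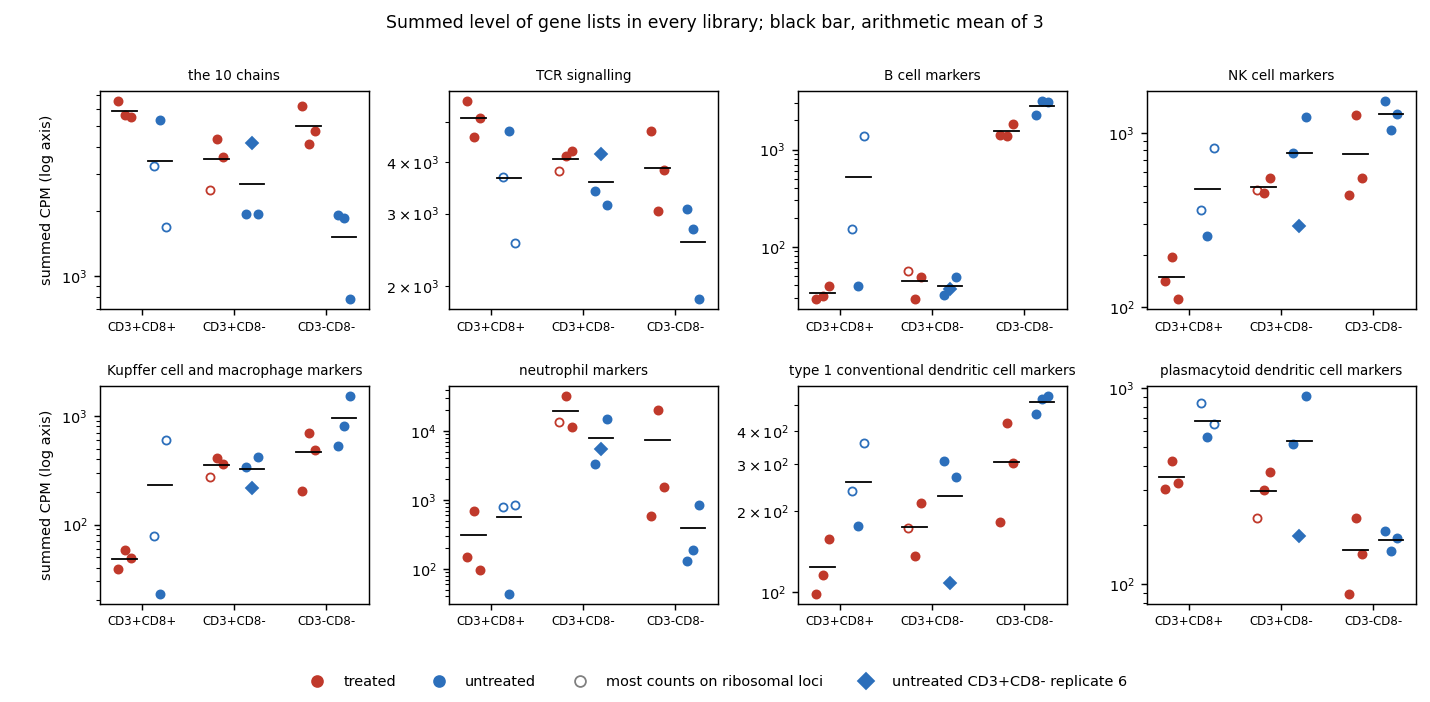
Summed CPM of the 10 chains and of 7 other gene lists (log axis) in all 18 libraries, treated libraries in red left of untreated ones in blue, with the arithmetic mean as a bar. In CD3-CD8- cells the sum of the 10 chains is 4112 to 6182 CPM treated and 778 to 1922 CPM untreated, while B cell markers are 1370 to 1850 CPM treated and 2301 to 3160 CPM untreated.

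In CD3+CD8+ cells no chain passed the treatment test, and neither did any of the 10654 genes tested (edgeR, 0% called, 624 genes at an unadjusted p under 0.05). At an unadjusted p under 0.05 stood 3 of the chains, Cd3g, Trbc1 and Cd4. DESeq2 called 98 genes and none of the 10 chains. The log2 fold changes of the chains were positive for 9 of 10, with a median of 0.57 against -0.03 for all genes. The treated libraries lay above the untreated ones without overlap for Cd3g, Cd8a and Trbc1 and below them for Cd4, patterns held by 5.79% and 4.15% of all genes. Cd8a had 1378, 1086 and 1266 CPM in treated CD3+CD8+ replicates 2, 11 and 19, against 655, 967 and 281 CPM in untreated replicates 1, 5 and 18, a log2 fold change of 0.92 ± 0.47 (SE, adjusted p = 0.968). Cd3g had 1405, 1568 and 913 CPM treated, against 511.5, 725 and 296 CPM untreated, a log2 fold change of 1.28 ± 0.43 (SE, adjusted p = 0.682). Trbc1 had 521, 615 and 420 CPM treated, against 239, 366.5 and 161 CPM untreated, a log2 fold change of 0.96 ± 0.37 (SE, adjusted p = 0.736). Cd4 had 26.9, 32.5 and 38.1 CPM treated, against 79.2, 39.7 and 51.8 CPM untreated.

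Untreated replicates 1 and 18 of this fraction are the ribosome-rich ones, and replicate 18 is low in most of the chains. Without the ribosome-rich libraries a single untreated library is left, assumed to vary like the treated ones, and the log2 fold changes were 0.83 for Cd3g, 0.36 for Cd8a and 0.50 for Trbc1. The log2 fold change of Cd4 was -0.83 ± 0.34 (SE, adjusted p = 0.758). It was -0.28 without the ribosome-rich libraries, and it turned positive, at 0.71, when libraries were scaled by their totals alone, a setting that moved the median of all genes to 1.17. limma voom with quality weights called 3 chains: Cd3g (log2 fold change 1.58, adjusted p = 0.0127), Trbc1 (1.17, adjusted p = 0.0260) and Cd4 (-1.29, adjusted p = 0.0402). It called 194 genes in all. Markers of other cells differed between the same libraries: B cell markers summed to 29.2 to 39.3 CPM treated and 39.4 to 1388 CPM untreated, and NK cell markers to 111 to 194 CPM treated and 256 to 824 CPM untreated. Kupffer cell markers summed to 39.0 to 57.9 CPM treated and 23.0 to 598 CPM untreated. Their part in the differences of the chains was not tested.

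None of 26 TCR signalling genes and none of 17 lineage regulators passed the test in CD3+CD8+ cells. Tox, a factor of CD4 lineage commitment in the thymus and of exhausted T cells, averaged 265 ± 19.9 CPM treated and 57.7 ± 27.1 CPM untreated (SD, n = 3 each), a log2 fold change of 2.10 ± 0.36 (SE, adjusted p = 0.273). Ikzf3, which encodes Aiolos, averaged 392.04 ± 45.3 CPM treated and 176 ± 4.16 CPM untreated, and Satb1, a chromatin organiser, 144 ± 41.2 CPM treated and 286 ± 83.8 CPM untreated. Fyn, a kinase of the CD3 chains, averaged 515 ± 78.4 CPM treated and 242 ± 69.5 CPM untreated, and Lcp2, which encodes SLP-76, 263 ± 44.3 CPM treated and 155 ± 26.2 CPM untreated. The adjusted p-values of these last 4 lay between 0.454 and 0.758. Trat1, a transmembrane adaptor of the receptor, averaged 8.70 ± 3.17 CPM treated and 16.2 ± 6.11 CPM untreated (adjusted p = 0.834). Satb1 and Trat1 had log2 fold changes of -1.06 and -1.02, which turned positive, at 0.57 and 0.02, with totals alone.

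In CD3+CD8- cells again no chain and none of 11197 genes passed the test (edgeR, 0% called, 198 genes at an unadjusted p under 0.05). At an unadjusted p under 0.05 stood 3 chains, Cd8a, Cd8b1 and Cd4. DESeq2 called 2 genes and none of the chains. Cd4 had 448, 998 and 874 CPM in treated CD3+CD8- replicates 2, 11 and 19, against 449, 284 and 103 CPM in untreated replicates 5, 18 and 6. The groups overlapped, since untreated replicate 5 lay level with treated replicate 2, the ribosome-rich one. The log2 fold change of Cd4 was 1.45 ± 0.57 (SE, adjusted p = 0.9998), and 1.07 without untreated replicate 6. Cd3e had 273, 255 and 227 CPM treated, against 169, 107 and 216 CPM untreated, and was the 1 chain whose groups stood apart, with the treated group higher. That pattern was held by 2.80% of all genes, and the reverse by 1.30%. Its log2 fold change was 0.60 ± 0.35 (SE, adjusted p = 0.9998), 0.86 without untreated replicate 6, and -0.08 with FPKM values. Cd8a had a log2 fold change of -3.96 and Cd8b1 of -3.48, and these were 1.34 and 0.03 without untreated replicate 6. None of 26 TCR signalling genes and none of 17 lineage regulators passed the test. Neutrophil markers summed to 11577 to 32698 CPM in treated and 3286 to 14981 CPM in untreated CD3+CD8- libraries, and their part in these levels was not tested.

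Whether the treatment effect differed between fractions was tested in a fit of all 18 libraries as 6 groups. Of 13181 genes none passed in any of the 3 comparisons of effects (edgeR, 0% called, 478 to 515 genes at an unadjusted p under 0.05), and DESeq2 called 1 to 116 genes but none of the chains. Between CD3-CD8- and CD3+CD8+ cells the log2 difference of effects was positive for all 10 chains, from 0.34 for Cd247 to 1.499 for Cd4, with the lowest adjusted p at 0.844. Of the 10 chains only Cd4 had an unadjusted p under 0.05 there. With the replicate number as a block there were also 0 calls, and without untreated CD3+CD8- replicate 6 the comparisons that use it had 0 chains called. The rise of 8 chains in CD3-CD8- cells was thus not shown to differ from the effect in the T cell fractions.

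The CD3-CD8- level of each chain was also set against the CD3+CD8+ level of the same replicate number. For Cd8a it was 71.3%, 50.4% and 64.1% in treated replicates 2, 11 and 19, against 27.6%, 29.7% and 21.6% in untreated replicates 1, 5 and 18. For Cd8b1 it was 49.1%, 50.1% and 41.7% treated, against 19.7%, 18.2% and 20.7% untreated. For Cd3e it was 83.9%, 70.3% and 59.1% treated, against 46.0%, 47.3% and 43.1% untreated. The treated values lay above the untreated ones for these 3 and also for Trbc2 and Cd4, and overlapped with them for the other 5 chains. Of 10889 genes with counts in all 6 CD3+CD8+ libraries, 8.22% had that pattern and 7.90% the reverse, which 0 of the 10 chains had. Cd4 alone stood above its CD3+CD8+ level in every treated replicate, at 170% to 306%, against 80.2% to 93.2% in the untreated ones. An exact permutation test of 3 against 3 (two-sided) cannot go below p = 0.10, which is what each of these 5 chains gave.

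**Figure D4:**
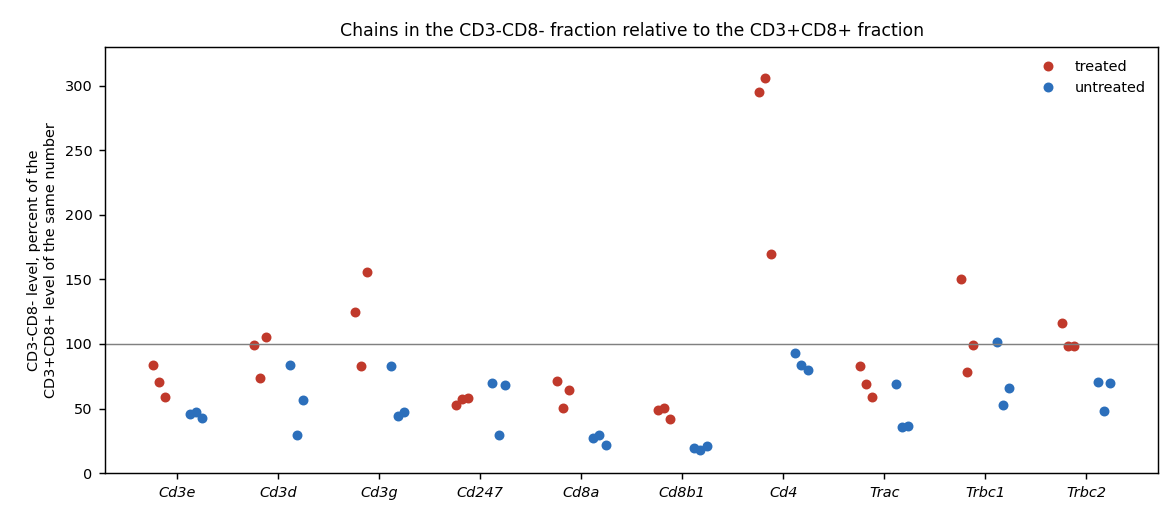
Level of each chain in CD3-CD8- cells as a percent of its level in CD3+CD8+ cells of the same replicate number, 3 treated numbers in red left of 3 untreated numbers in blue, with a line at 100%. Cd8a lies at 50.4% to 71.3% treated and 21.6% to 29.7% untreated, and Cd247 overlaps between the groups.

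Between the T cell fractions of treated mice, the coreceptors passed the test and no shared chain did in the fit without a block. In treated mice Cd8a and Cd8b1 were higher and Cd4 lower in CD3+CD8+ than in CD3+CD8- cells, 3 of the 10 chains, where 5.96% of 13181 genes passed (edgeR). Cd8a averaged 1243 ± 147 CPM in CD3+CD8+ and 14.6 ± 8.08 CPM in CD3+CD8- cells (SD, n = 3 each), a log2 fold change of 6.45 ± 1.45 (SE, adjusted p = 0.0122). Cd8b1 averaged 709 ± 241 CPM in CD3+CD8+ and 17.7 ± 6.54 CPM in CD3+CD8- cells, a log2 fold change of 5.33 ± 1.16 (SE, adjusted p = 0.0101). Cd4 averaged 32.5 ± 5.57 CPM in CD3+CD8+ and 773 ± 288 CPM in CD3+CD8- cells, a log2 fold change of -4.57 ± 0.52 (SE, adjusted p = 0.000692), the lowest p of all genes. With the replicate number as a block, 8.44% of genes passed, and Trbc1 was also higher in CD3+CD8+ cells (log2 1.16, adjusted p = 0.0334).

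In untreated mice 1 of the 10 chains differed, where 1.58% of genes passed. Cd4 averaged 56.9 ± 20.2 CPM in CD3+CD8+ and 278 ± 173 CPM in CD3+CD8- cells (SD, n = 3 each), a log2 fold change of -2.31 ± 0.48 (SE, adjusted p = 0.0305), and -2.78 without CD3+CD8- replicate 6 (adjusted p = 0.00530). This call was lost in fits without any 1 of untreated CD3+CD8+ replicates 1, 5 and 18 or of CD3+CD8- replicates 5 and 18. Without the CD3+CD8- replicate 6, 3 chains were called (374 genes in all, against 208 with it), Cd8a and Cd8b1 higher and Cd4 lower. The fit with the replicate number as a block, which shares only numbers 5 and 18 here, also called these 3, with 3.30% of genes, and gave log2 fold changes of 6.43 for Cd8a and 4.58 for Cd8b1. With all libraries and no block they were 1.56 ± 1.16 for Cd8a and 1.49 ± 0.98 for Cd8b1 (SE).

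No chain differed between CD3+CD8+ and CD3-CD8- cells in the fit without a block, where 4.94% of genes passed in treated and 4.57% in untreated mice (edgeR). At an unadjusted p under 0.05 stood 1 chain in treated mice (1709 genes in all) and 5 in untreated mice (3037 genes in all). DESeq2 called 0 chains in treated mice (917 genes in all) and 2 in untreated mice (1191 genes in all). In treated mice the log2 fold changes ran from -1.32 for Cd4 to 1.10 for Cd8b1, with a median of 0.31. Cd3g averaged 1295 ± 341 CPM in CD3+CD8+ and 1490.3 ± 237 CPM in CD3-CD8- cells of treated mice (SD, n = 3 each). In untreated mice the 10 log2 fold changes were all positive, from 0.18 for Cd4 to 2.41 for Cd8b1, with a median of 1.09. With the replicate number as a block, Cd4 was lower in CD3+CD8+ cells of treated mice (log2 -1.33, adjusted p = 0.0109, 7.67% of genes called). In untreated mice the block gave 4 chains higher in CD3+CD8+ cells, with 11.7% of genes called: Cd8b1 (log2 2.38, adjusted p = 0.00256), Cd3e (1.14, adjusted p = 0.0115), Cd8a (1.91, adjusted p = 0.0181) and Trac (1.16, adjusted p = 0.0273).

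Cd4 was the 1 chain higher in CD3+CD8- than in CD3-CD8- cells, in treated mice (log2 3.25 ± 0.49, SE, adjusted p = 0.00416) and in untreated mice (2.49 ± 0.47, SE, adjusted p = 0.00958, and 2.89 without CD3+CD8- replicate 6). There 1.23% of genes passed in treated and 3.16% in untreated mice (edgeR). In treated mice Cd8a had a log2 fold change of -5.77 ± 1.40 (SE, adjusted p = 0.0564) and Cd8b1 of -4.22 ± 1.10 (SE, adjusted p = 0.0754). The block called both, with adjusted p = 0.000210 for each, and Trbc1 lower in CD3+CD8- cells (log2 -1.24, adjusted p = 0.0393), with 4.86% of genes called. In untreated mice the block gave -4.53 for Cd8a (adjusted p = 0.00201) and -2.20 for Cd8b1 (adjusted p = 0.00981), with 10.3% of genes called, against 0.29 and 0.92 without it. Untreated CD3+CD8- replicate 6 is the only library of its number, so the block gives it no weight. Leaving that library out gave -4.96 for Cd8a and -2.56 for Cd8b1.

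Ratios between chains within a library do not depend on its depth or scaling. They were computed from counts with 0.5 added to each, as 10 ratios in each of 3 fractions. In 7 of the 30 the treated and untreated libraries did not overlap, and each of these 7 gave p = 0.10, the smallest value an exact permutation test of 3 against 3 can give (two-sided, adjusted p = 0.429 over the 30). Of the 7, 4 lie in CD3-CD8- cells, 3 in CD3+CD8+ cells and 0 in CD3+CD8- cells.

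The ratio of Cd8b1 to Cd8a, beta over alpha chain, was 0.442, 0.398 and 0.415 in treated CD3-CD8- replicates 2, 11 and 19, against 0.513, 0.609 and 0.656 in untreated replicates 1, 5 and 18. In CD3+CD8+ cells it was 0.642, 0.400 and 0.638 in treated replicates 2, 11 and 19, against 0.718, 0.990 and 0.685 in untreated replicates 1, 5 and 18. The mean log2 difference was -0.50 in CD3-CD8- and -0.52 in CD3+CD8+ cells. These are ratios of counts of genes of different length, and say nothing of which chain was more abundant. In CD3+CD8- cells the groups overlapped, at 0.967, 0.813 and 2.59 in treated replicates 2, 11 and 19, against 3.88, 2.40 and 0.858 in untreated replicates 5, 18 and 6. They also overlapped without replicate 6, which has CD3+CD8+ levels of both chains, and Cd8a had as few as 26 counts in the other libraries.

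The ratio of Cd8a to Cd3e in CD3-CD8- cells was 3.16, 3.17 and 3.56 in treated replicates 2, 11 and 19, against 1.64, 2.30 and 1.17 in untreated replicates 1, 5 and 18. Cd3g relative to Cd3e was 5.65, 7.499 and 6.24 treated, against 3.84, 2.58 and 2.71 untreated, a mean log2 difference of 1.10. Cd247 relative to Cd3e was 0.414, 0.464 and 0.568 treated, against 0.691, 0.673 and 0.876 untreated, a mean log2 difference of -0.63. Cd3d relative to Cd3e overlapped between the groups, with geometric means of 2.36 treated and 1.94 untreated and a mean log2 difference of 0.28 (exact permutation test, p = 0.30, adjusted p = 0.5625 over the 30). Transcript GC content is 38.48% for Cd3g, 44.51% for Cd3e and 44.44% for Cd247, and its part in these ratios was not tested.

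Cd4 relative to Cd8a was 0.0196, 0.0300 and 0.0301 in treated CD3+CD8+ replicates 2, 11 and 19, against 0.122, 0.0411 and 0.187 in untreated replicates 1, 5 and 18. Cd4 relative to Cd3e in the same cells was 0.0730, 0.132 and 0.0988 treated, against 0.332, 0.150 and 0.435 untreated. The higher untreated values belong to the ribosome-rich replicates 1 and 18. Replicate 5 lies closest to the treated libraries in both ratios.

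Computed from counts, the ratios among the receptor's constant chains overlapped between treated and untreated libraries in every fraction. Trac over Cd3e averaged 1.28 in treated and 1.25 in untreated CD3+CD8+ cells (geometric means, n = 3 each). It averaged 1.26 in treated and 1.58 in untreated CD3+CD8- cells (1.62 without replicate 6), and 1.27 in treated and 1.24 in untreated CD3-CD8- cells, and the groups overlapped in each fraction. The sum of Trbc1 and Trbc2 over Trac averaged 2.52 in treated and 2.49 in untreated CD3+CD8+ cells. In CD3-CD8- cells it averaged 3.77 treated and 3.61 untreated, and all 6 libraries, at 3.12 to 4.04, lay above 5 of the 6 CD3+CD8+ libraries. Trbc1 over Trbc2 averaged 0.950 in treated and 0.656 in untreated CD3+CD8+ cells, and the groups overlapped. Computed from FPKM, some groups stood apart in CD3-CD8- cells. Trac over Cd3e was then 4.11 to 5.08 treated, against 2.76 to 3.83 untreated. The sum of Trbc1 and Trbc2 over Trac was 2.27 to 3.08 treated, against 3.62 to 4.15 untreated. Whether these proportions changed with treatment thus depends on the measure.

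**Figure D5:**
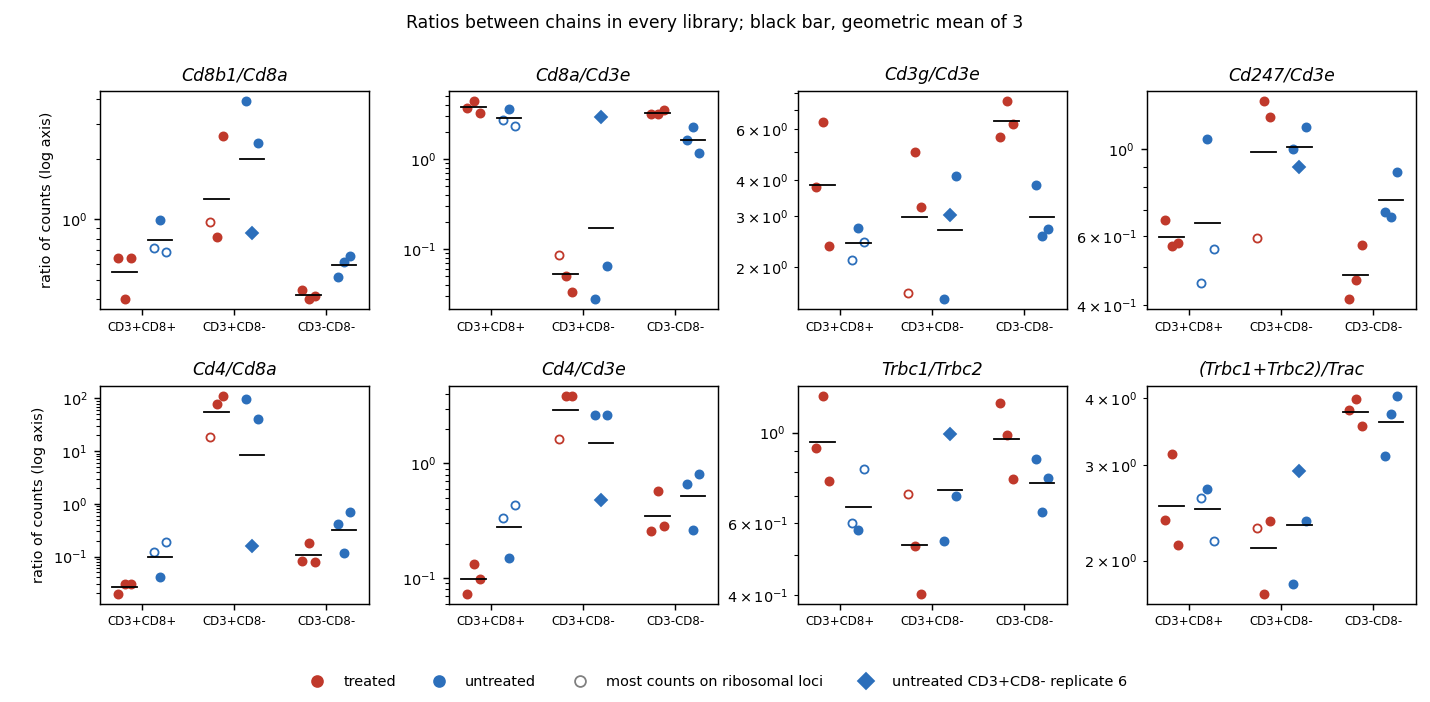
Ratios of counts between chains (log axis) in all 18 libraries, treated in red left of untreated in blue, with the geometric mean as a bar. In CD3-CD8- cells Cd3g/Cd3e is 5.65 to 7.499 treated and 2.58 to 3.84 untreated, and Cd247/Cd3e is 0.414 to 0.568 treated and 0.673 to 0.876 untreated.

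Levels can be compared between genes only per length, within a library, from the deposited FPKM values. By FPKM, Trac, Trbc1, Trbc2 and Cd3g took the first 4 places in all libraries but untreated CD3+CD8+ replicate 5, where Cd8b1 stood above Trbc1 and Trac. Cd3g came first in all 3 treated CD3-CD8- libraries and Trbc2 in all 3 untreated ones. Among the CD3 chains, Cd3e stood below Cd3d, and Cd3d below Cd3g, in every library. Cd4 was last in all CD3+CD8+ and CD3-CD8- libraries, and Cd8a was last in all CD3+CD8- libraries but untreated replicate 6, where Cd4 was last.

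The genes whose pattern over the 18 libraries lay closest to a chain were found by the root mean square difference of centred log2 CPM among 7538 genes. For Cd3e they were Prkch (0.25), Ubash3a (0.31) and Fyn (0.35), where the spread of Cd3e itself was 0.71 (SD, log2). For Cd8a they were Gzmb (1.96), Crtam (2.04) and Cd7 (2.11), against a spread of 2.84. For Cd4 they were Gsr (0.83), Ptafr (0.83) and Mxd1 (0.85), against 1.63. Among the chains, Trac lay closest to Cd3e (0.22), and Cd8b1 lay closest to Cd8a (0.92). Without untreated CD3+CD8- replicate 6, a setting chosen after seeing the data, the same 3 genes were closest to each chain. These distances share libraries, fractions and scaling and are a description.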

How the data were processed

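RNA-seq counts per gene and FPKM values were deposited by the authors as 2 tables, from which the 18 libraries named by the labels were used. The other 22 count columns and 23 FPKM columns were not used. Cufflinks 2.2.1, HTSeq 0.13.5, DESeq2 3.20 and Trim Galore 0.6.7 are listed in the submitters' processing notes. The aligner is not given in the sources used here. The counts were tested as deposited with edgeR 4.0.16 (quasi-likelihood F-test, TMM, filterByExpr, R 4.3.3, Benjamini-Hochberg adjusted p under 0.05): per fraction for treatment, and in 1 fit of 18 libraries as 6 groups for differences of effects and between fractions. DESeq2 1.42.0, limma 3.58.1, a GC offset from transcripts, FPKM with a pseudocount of 1 or 0.1, and leaving out each library were alternatives. The tests were also run on simulated data, with the same spread for every gene and no outlying library. That check does not cover libraries that differ as much as these.

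Totals ran from 1829155 to 28233682 counts per library, and counts under 30 limit Cd8a and Cd4 in the shallowest cases. Replicate numbers come from the library names, and 1 treated CD3+CD8- library, taken as replicate 11, has a title with an extra digit. Same-numbered libraries deviated together in all 9 treated pairs (r from 0.124 to 0.689) and in the 3 untreated pairs of CD3+CD8+ and CD3-CD8- cells (0.204 to 0.598). Pairs of unlike number gave -0.659 to 0.111 when treated and -0.499 to 0.294 in those untreated cells. Deviations were taken from the mean of each group of 3, so where like pairs are positive, unlike ones tend to be negative. Untreated CD3+CD8- cells share only numbers 5 and 18 with the others, and 1 of those pairs gave r = -0.05. Untreated CD3+CD8- replicate 6 gave r = 0.586 with untreated CD3+CD8+ replicate 5, a pair of unlike number.

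Members and lists were chosen with earlier results of these data known. Named list genes are the 3 of smallest p per list and comparison. One gene that this rule names is not reported here. Of CD3+CD8- cells, of the marker lists in CD3+CD8+ cells and of hepatocyte markers, only counts or sums are given. Symbols follow the deposited table (Tcrg-C2).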

Additional observations from a re-analysis of the deposited data

How the results depend on the processing

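In CD3-CD8- cells, where 8 chains passed for treatment, 3 passed with totals alone, 1 with all 18 libraries in 1 fit, 1 with the GC correction, 0 with FPKM values at either pseudocount, and 0 to 9 when 1 library was left out. All genes called were 3522, against 2043 with totals alone, 76 with all 18 libraries in 1 fit and 500 with the GC correction. They were 253 and 281 with FPKM at a pseudocount of 1 and 0.1, and 5479 with DESeq2. Leaving out 1 library gave 239 (untreated replicate 5) to 3183. Below, all genes called in the same fit are in brackets. The other treatment comparisons had 0 chains called, against 3 with voom in CD3+CD8+ cells (194), and 1 with totals alone (7) and 2 with no filter (195) in CD3+CD8- cells. For the difference of effects, CD3+CD8+ against CD3+CD8- cells gave 1 with totals alone (85) and 3 with no filter (384). CD3-CD8- against CD3+CD8- cells gave 2 with totals alone (36) and 2 with no filter (160).

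Of the fraction comparisons in untreated mice, CD3+CD8+ against CD3+CD8- cells had 1 chain called (208). With no filter 3 were called (775), with the replicate block 3 (435) and with only the libraries compared 0 (0). Leaving out 1 library gave 0 to 3 (0 to 374). CD3+CD8+ against CD3-CD8- cells had 0 (602), against 2 with no filter (1633), 2 with DESeq2 (1191) and 4 with the replicate block (1538). Leaving out 1 library gave 0 to 1 (107 to 984). Without the ribosome-rich libraries 1 untreated CD3+CD8+ library is left, so calls of that fit are not given. CD3+CD8- against CD3-CD8- cells had 1 (417), against 0 with totals alone (152), 2 with DESeq2 (754) and 0 with only the libraries compared (293). The replicate block gave 3 (1362), and leaving out 1 library gave 0 to 3 (92 to 554). In treated mice, CD3+CD8+ against CD3-CD8- cells had 0 (651). No filter gave 1 (1019), only the libraries compared 1 (678) and the replicate block 1 (1011). CD3+CD8- against CD3-CD8- cells had 1 (162), against 2 with totals alone (158), 4 with no filter (1072) and 3 with DESeq2 (616). Only the libraries compared gave 3 (224) and the replicate block 4 (641). The block was used in these fraction comparisons and in the differences of effects, where it changed no call. No paired analysis of treatment was possible because treated and untreated libraries share no replicate number.

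Directions that turned in CD3+CD8+ cells (treatment) were Cd4 (0.71 with totals alone, 1.10 and 1.32 with FPKM), Satb1 (0.57, 1.06 and 1.12) and Trat1 (0.0194, 1.0025 and 1.55). In CD3+CD8- cells (treatment), Cd3e turned to -0.0783 and -0.0834 with FPKM and Cd8a to 0.0492 with voom. Leaving out 1 library gave -4.53 to 1.34 for Cd8a and -4.02 to 0.0305 for Cd8b1 there. Between untreated CD3+CD8+ and CD3-CD8- cells Cd4 was -1.33 with totals alone, -0.34 without the ribosome-rich libraries and -0.19 to 0.50 with 1 library left out. Between untreated CD3+CD8- and CD3-CD8- cells the replicate block gave -4.53 for Cd8a and -2.20 for Cd8b1, and leaving out 1 library gave -4.96 to 0.85 for Cd8a and -2.56 to 1.49 for Cd8b1. Untreated CD3+CD8- replicate 6 sets the sign of both CD8 chains. The cause of the other changes was not tested. Of the ratios, 7 did not overlap, and 9 did not with FPKM and 7 to 10 with 1 library left out. FPKM added Trac over Cd3e and the sum of Trbc1 and Trbc2 over Trac, both in CD3-CD8- cells.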
